A study of Bos taurus with 6 samples.

Results

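The genes described are those of WNT signalling: WNT ligands, Frizzled (FZD) receptors and co-receptors, R-spondins, secreted inhibitors, cytoplasmic transducers and nuclear factors. They were chosen by name, as every probe set (a group of short array probes read as 1 value) whose only gene symbol begins with WNT, FZD, SFRP, DKK, DVL or AXIN or is one of 23 listed symbols. This gave 32 genes of 9155 with a symbol, on 52 of 24016 probe sets. Each gene was read from its probe set with the highest mean over all arrays. Of the listed symbols, 9 had no probe set under that symbol (LRP6, LGR5, RSPO2, TCF7L1, WIF1, RYK, ROR1, PORCN and NKD1), and these genes, like WNT4, WNT5A and FZD6, were not analysed here.

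RNA came from pools of cumulus cells, the somatic cells that surround the oocyte, taken from ovaries of slaughtered crossbred cows (Bos indicus x Bos taurus). Follicles measuring 8 mm or more supplied the cells of 3 arrays (competent in the labels, large-follicle here), and follicles of 1 to 3 mm those of 3 others (incompetent, small-follicle here). The labels name no agent given to either group, and only complexes with an even cytoplasm and several compact cell layers were kept in either group. The comparison asks which cumulus transcripts differ with follicle size, the study's stand-in for the capacity of the oocyte to become a blastocyst. The titles number the arrays of a group as biological replicates, but the sources used here do not give the number or age of the cows, or how many complexes made up a pool. The p-values therefore measure the spread between these pools.

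WNT proteins are lipid-modified secreted ligands that need the carrier WLS to leave the cell and bind Frizzled receptors together with LRP co-receptors. Without a ligand, a destruction complex of AXIN, APC, casein kinase 1 alpha and GSK3 marks beta-catenin for breakdown. With a ligand, Dishevelled (DVL) proteins recruit that complex, beta-catenin accumulates, and it acts in the nucleus through the TCF/LEF factors, which otherwise hold co-repressors of the TLE family. In the ovary the pathway is best known for its part in female sex determination and in the granulosa cells of the growing follicle.

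All values are log2 signals made by RMA, so a difference of 1 is a 2-fold change in signal. Differences are large-follicle minus small-follicle, with the standard error (SE) of limma, and a gene was called when its Benjamini-Hochberg adjusted p over all 24016 probe sets was under 0.05. Levels were compared between arrays for the same probe set and not between genes. The array medians lay between 5.64 and 5.68, and correlations were 0.9927 to 0.9948 within groups and 0.9817 to 0.9879 across groups. With 3 arrays in each group, precision is limited by their number.

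In cumulus cells from large follicles there was more LEF1 and TLE1 transcript and less TCF7. Of the 4 nuclear factors among the 32 genes, 3 were thus called, in opposite directions. In the destruction complex, GSK3B was higher and APC lower. No WNT ligand, receptor, R-spondin or secreted inhibitor was called, although SFRP4 and SFRP2 showed mean differences as large as those of the nuclear factors. Of the 32 genes, 3 rose (9.38%) and 2 fell (6.25%). Over 1 probe set for each of the 9155 genes, the background was 7.08% called higher and 8.3% lower, and over all 24016 probe sets 5.72% and 7.16%. The share of WNT genes called was thus near the background, and their median difference was -0.03, against 0.01 for all genes. The groups did not overlap in 11 of the 32 genes (34.4%), against 36.5% of all genes. An unadjusted limma p under 0.05 was met by 12 of the 32 genes and by 2857 of all 9155. Counts at that cut below are to be read beside this share. The number that fell depended on small-follicle replicate 1: without that array 4 genes fell, SFRP4 and SFRP2 being added. The number that rose was 2 to 4 when 1 array was left out.

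**Figure D1:**
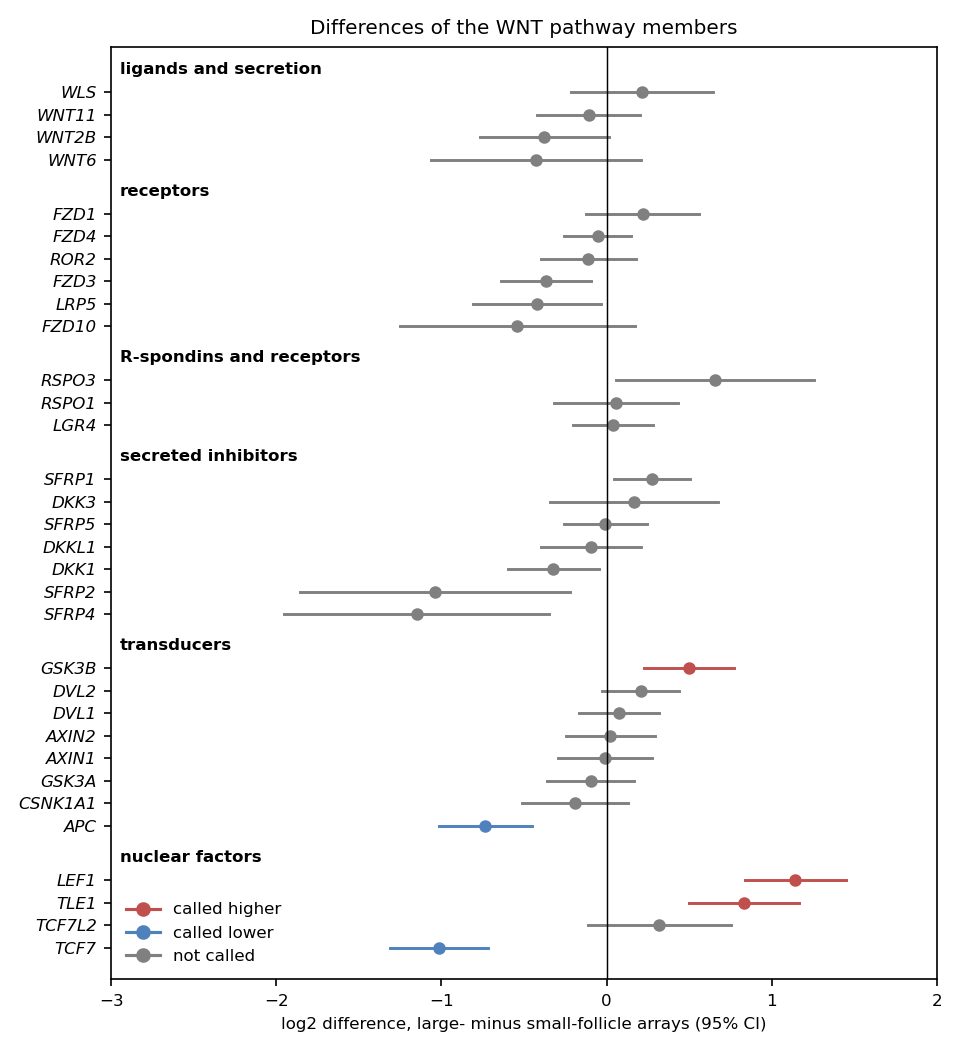
Log2 difference (large-follicle minus small-follicle arrays, 3 each) of the 32 WNT pathway genes, grouped by role, with the 95% confidence interval from limma as a line. LEF1, TLE1 and GSK3B (red) were called higher and TCF7 and APC (blue) lower, and the intervals of SFRP4 and SFRP2 are the widest.

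LEF1, a DNA-binding partner of beta-catenin, read 7.45, 7.18 and 7.56 in large-follicle replicates 1, 2 and 3, and 6.35, 6.06 and 6.35 in the small-follicle replicates. Every large-follicle array lay above every small-follicle array. The means were 7.40 ± 0.20 and 6.25 ± 0.17 (SD, n = 3 each), a difference of 1.14 ± 0.13 (SE), which is 2.21-fold higher in large follicles (limma adjusted p = 0.00219). LEF1 has 1 probe set under its symbol. The difference lay between 1.05 and 1.25 when any 1 array was left out, and the call held each time.

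TCF7, the related factor first found in T cells and often called TCF1, moved the other way. It read 7.63, 7.44 and 7.24 in large-follicle replicates 1, 2 and 3, and 8.48, 8.58 and 8.29 in the small-follicle replicates. All small-follicle arrays were the higher ones, without overlap. The means were 7.44 ± 0.20 and 8.45 ± 0.15 (SD, n = 3 each), a difference of -1.01 ± 0.13 (SE), 2.02-fold lower in large follicles (limma adjusted p = 0.00296). Its dimmer probe set read -0.84 ± 0.13 and was also called (adjusted p = 0.00646). Leaving out any 1 array gave -1.11 to -0.92, with the call kept. The 95% confidence interval of TCF7, -1.31 to -0.72, and that of LEF1, 0.84 to 1.45, lie on opposite sides of 0.

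TLE1, a co-repressor that binds TCF/LEF factors in the absence of beta-catenin, read 8.53, 8.90 and 8.44 in large-follicle replicates 1, 2 and 3. The small-follicle replicates read 7.93, 7.61 and 7.83, all below the large-follicle arrays. The difference was 0.83 ± 0.15 (SE; limma adjusted p = 0.0092), 1.78-fold, and the call held without any 1 array (0.70 to 0.93). It rests on that probe set, however. The other probe sets of TLE1 read -0.003 ± 0.09 and 0.22 ± 0.21 and were not called, and the mean of all its probe sets read 0.35 (adjusted p = 0.0781).

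TCF7L2, the fourth measured nuclear factor, read 7.82, 8.15 and 7.32 in large-follicle replicates 1, 2 and 3, and 7.40, 7.50 and 7.43 in the small-follicle ones. Replicate 3 of the large follicles lay below all small-follicle arrays, while the other large-follicle arrays lay above them. The difference of 0.32 ± 0.19 (SE) was not called (limma adjusted p = 0.335), and without large-follicle replicate 3 it was 0.54 with a call (adjusted p = 0.0426).

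LEF1 and TCF7 are also abundant in T lymphocytes, so leukocyte markers are given beside them. All 14 measured markers had a positive difference, of which 2 were called (CORO1A and LCP1) and 12 were not. Over all genes 15.4% were called. Their mean log2 signal read 5.52, 4.77 and 4.62 in large-follicle replicates 1, 2 and 3, and 4.36, 4.22 and 4.85 in the small-follicle replicates. The groups overlapped, with large-follicle replicate 1 the highest (difference 0.49, 2-sided exact permutation test, p = 0.3). Their summed linear signal ranged from 409 to 868 in large-follicle arrays and from 306 to 489 in small-follicle arrays, and 2 of the 14 lay under the lower quartile of probe set means. The T cell receptor subunit CD3E differed by 0.19 ± 0.17 (SE) and CD2 by 0.06 ± 0.11, without a call, and PTPRC by 0.08. With the mean of the leukocyte markers as a covariate, LEF1 read 1.08 (limma adjusted p = 0.0192) and TCF7 -1.07 (adjusted p = 0.0182), both called. In that fit TLE1 at 0.83 (adjusted p = 0.0512), APC at -0.71 (adjusted p = 0.0507) and GSK3B at 0.55 (adjusted p = 0.096) missed the threshold. CD14 and LAPTM5 varied more between arrays of a group (pooled SD 0.95 and 1.10) than CD3E (0.27) and CD2 (0.11). The fit therefore cannot adjust for T lymphocytes in particular, and their part was not tested.

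**Figure D2:**
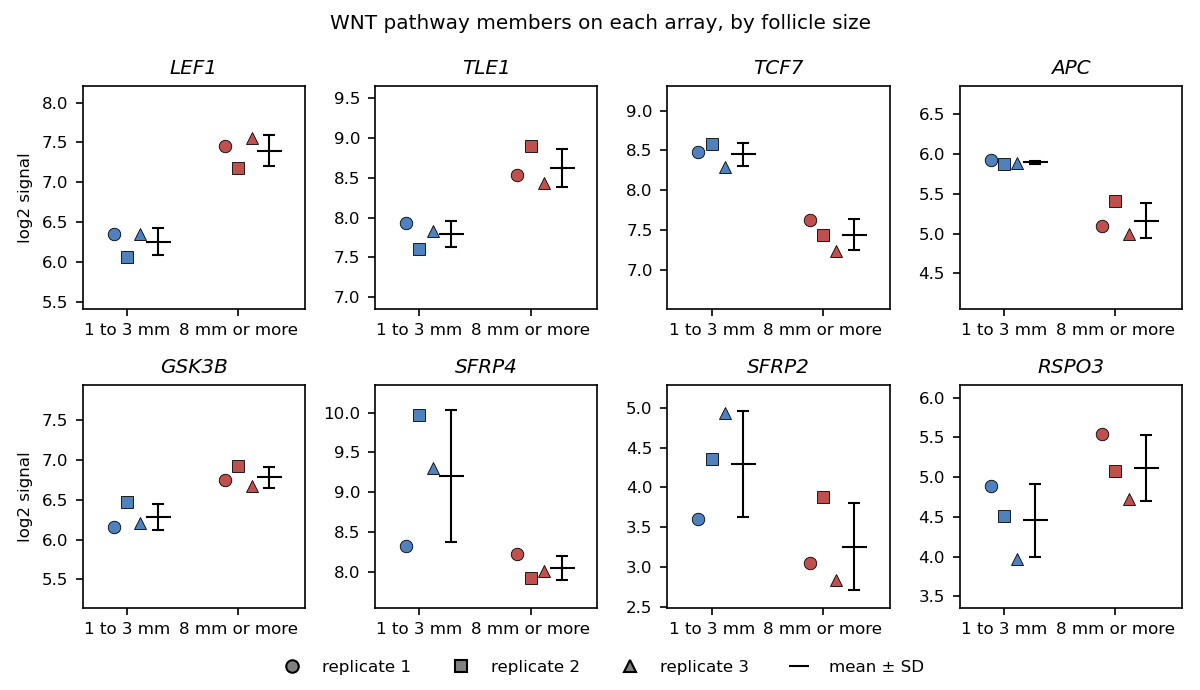
Log2 signal of 8 WNT pathway genes on each array (vertical axis, each panel spanning the same range of log2 units) for follicles of 1 to 3 mm (blue) and of 8 mm or more (red), with the mean ± SD of 3 arrays in black. LEF1, TLE1, TCF7, APC and GSK3B separate the groups on every array, whereas SFRP4 and SFRP2 vary widely among small-follicle arrays and RSPO3 and SFRP2 overlap between groups.

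Of the 8 measured transducers, 1 rose, 1 fell and 6 were not called (25% called, against 15.4% of all genes). Their median difference was 0.01, as over all genes. APC, the scaffold of the destruction complex, read 5.09, 5.41 and 4.99 in large-follicle replicates 1, 2 and 3, and 5.92, 5.88 and 5.89 in the small-follicle replicates. The small-follicle arrays agreed closely with each other, and all lay above the large-follicle arrays. The difference was -0.73 ± 0.12 (SE; limma adjusted p = 0.00787), 1.66-fold lower in large follicles, and was called without any 1 array (-0.86 to -0.65). This probe set lay under the median of all probe set means (5.67). The other 2 probe sets were dimmer and uncalled, at -0.26 ± 0.11 and -0.04 ± 0.09, and the mean of all probe sets read -0.35 (adjusted p = 0.0369).

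GSK3B, the kinase that phosphorylates beta-catenin for breakdown, read 6.75, 6.92 and 6.67 in large-follicle replicates 1, 2 and 3, and 6.16, 6.47 and 6.21 in the small-follicle replicates. The groups did not overlap. The difference was 0.50 ± 0.12 (SE; limma adjusted p = 0.0301), 1.41-fold. The call was lost without large-follicle replicate 1 (0.52) or 2 (0.43) and without small-follicle replicate 1 (0.44) or 3 (0.47). A second probe set of similar signal read 0.50 ± 0.16 (adjusted p = 0.0819), and the dimmest, at the foot of the signal range, 0.07 ± 0.09. The paralogue GSK3A, which shares this role, read 10.26 ± 0.10 in large-follicle and 10.36 ± 0.16 in small-follicle arrays (SD, n = 3 each) and was not called (-0.10, 95% confidence interval -0.36 to 0.16).

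CSNK1A1, casein kinase 1 alpha, which primes beta-catenin for GSK3, gave no single answer. Its brightest probe set read -0.19 ± 0.14 (SE) and was not called. The next read 0.50 ± 0.13 and was called higher (limma adjusted p = 0.0462), and another read -0.46 ± 0.10 and was called lower (adjusted p = 0.0211). The remaining 2 read -0.01 and 0.11. It was the only one of the 32 genes with calls in both directions.

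The AXIN scaffolds were not called. AXIN1 read 9.54, 9.30 and 9.74 in large-follicle replicates 1, 2 and 3, against 9.58, 9.56 and 9.47 in the small-follicle replicates, a difference of -0.01 ± 0.12 (SE). AXIN2, itself a widely used target gene of beta-catenin, read 5.95, 5.72 and 6.10 against 5.86, 5.98 and 5.86. The arrays of both groups interleaved, and its difference of 0.02 ± 0.12 had a 95% confidence interval of -0.25 to 0.29. The Dishevelled genes DVL1, at 0.08 ± 0.11, and DVL2, at 0.21 ± 0.10, were not called, though the groups did not overlap for DVL2.

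**Figure D3:**
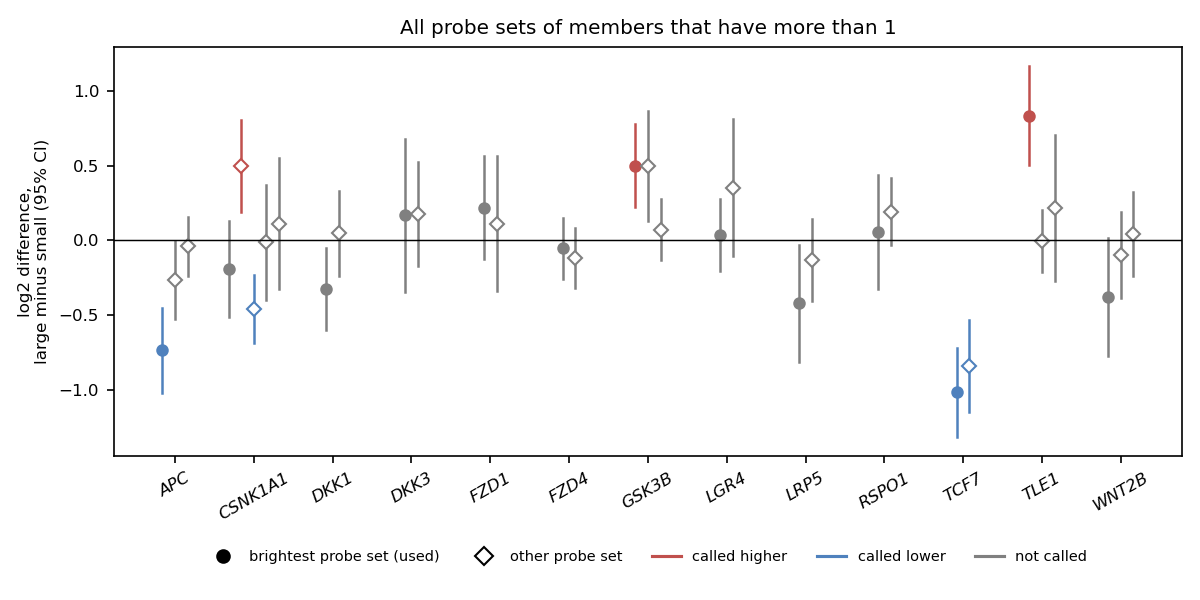
Log2 difference (large-follicle minus small-follicle) with its 95% confidence interval for every probe set of the 13 genes that have more than 1, the filled circle being the brightest one. Both TCF7 probe sets are called lower, TLE1 is called on 1 of 3, and CSNK1A1 has 1 probe set called higher and another called lower.

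Among the 6 measured receptors and co-receptors limma called 0, and 2 had an unadjusted p under 0.05 (FZD3 and LRP5). Over all genes, 2857 of 9155 had one. LRP5, the co-receptor of Frizzled, read 6.96, 6.51 and 7.13 in large-follicle replicates 1, 2 and 3, and 7.48, 7.14 and 7.24 in the small-follicle replicates. The small-follicle arrays were the higher ones, by a margin of 0.01 between the nearest arrays. The difference of -0.42 ± 0.17 (SE) did not pass (limma adjusted p = 0.154), and the dimmer probe set of LRP5 read -0.13 ± 0.12 without a call. FZD3 differed by -0.37 ± 0.12 (adjusted p = 0.0817, and 0.0386 without small-follicle replicate 3), at a signal under the lower quartile of probe set means (3.83). FZD1 read 8.65 ± 0.23 against 8.43 ± 0.20 (SD, n = 3 each), a difference of 0.22, with 0.11 at its second probe set. FZD4 differed by -0.05 ± 0.09 and by -0.12 ± 0.09 at its dimmer probe set, both also under the lower quartile and not called. FZD10 read 5.36, 4.86 and 5.16 in large-follicle replicates 1, 2 and 3, and 4.95, 6.35 and 5.70 in the small-follicle replicates, with the highest value in small-follicle replicate 2 and a difference of -0.54 ± 0.31. ROR2, a receptor tyrosine kinase for WNT ligands that signals apart from beta-catenin, read 11.06 ± 0.21 against 11.17 ± 0.10 (SD, n = 3 each; difference -0.11 ± 0.13).

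Among the 4 ligand and secretion genes limma called 0, and 0 had an unadjusted p under 0.05. WNT2B read 7.71, 7.89 and 7.40 in large-follicle replicates 1, 2 and 3, and 7.74, 8.27 and 8.12 in the small-follicle replicates. The groups overlapped through small-follicle replicate 1, and the difference of -0.38 ± 0.17 (SE) was not called (adjusted p = 0.202). Its dimmer probe sets read -0.10 and 0.04. WNT11, a ligand tied to cell movement and polarity, read 6.78 ± 0.08 against 6.89 ± 0.25 (SD, n = 3 each), and its difference was -0.11 ± 0.14. WNT6 differed by -0.43 ± 0.28, with small-follicle replicate 2 at 4.85 and the other 5 arrays between 3.58 and 4.06. WLS, the carrier of WNT proteins, differed by 0.22 ± 0.19.

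R-spondins are secreted proteins that bind LGR receptors and keep Frizzled receptors on the cell surface. Of 3 measured genes of this group limma called 0, and RSPO3 alone had an unadjusted p under 0.05. RSPO3 read 5.54, 5.08 and 4.72 in large-follicle replicates 1, 2 and 3, and 4.89, 4.51 and 3.97 in the small-follicle replicates. The groups overlapped, since small-follicle replicate 1 lay above large-follicle replicate 3, and the difference of 0.66 ± 0.26 (SE) did not pass (adjusted p = 0.151). RSPO1 differed by 0.06 ± 0.16 and by 0.19 ± 0.10 at a dimmer probe set. LGR4, the R-spondin receptor, read 9.99 ± 0.10 against 9.96 ± 0.12 (SD, n = 3 each), a difference of 0.04 with a 95% confidence interval of -0.21 to 0.28. Its dimmer probe set, under the lower quartile of signal, read 0.35 ± 0.20 (SE) and was not called.

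Secreted inhibitors either bind WNT proteins, as the SFRP family does, or block the LRP co-receptors, as DKK1 does. Of 7 measured, limma called 0, and 4 had an unadjusted p under 0.05: SFRP4, SFRP2, SFRP1 and DKK1. Over all genes, 2857 of 9155 had one. SFRP4, a Frizzled-related protein known from luteinising follicles of rodents, read 8.22, 7.92 and 8.01 in large-follicle replicates 1, 2 and 3, and 8.32, 9.97 and 9.31 in the small-follicle replicates. All small-follicle arrays lay above the large-follicle arrays, replicate 1 by only 0.10. The means were 8.05 ± 0.15 and 9.20 ± 0.83 (SD, n = 3 each), and the difference of -1.15 ± 0.35 (SE) did not pass (adjusted p = 0.0688). Its size depended on single small-follicle arrays: -1.59 with a call without replicate 1 (adjusted p = 0.0076) and -0.77 without replicate 2.

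SFRP2 read 3.05, 3.88 and 2.84 in large-follicle replicates 1, 2 and 3, and 3.60, 4.36 and 4.93 in the small-follicle replicates. Large-follicle replicate 2 lay above small-follicle replicate 1, so the groups overlapped, and the mean signal lay under the lower quartile of probe sets. The difference was -1.04 ± 0.36 (SE; limma adjusted p = 0.1), and -1.39 with a call without small-follicle replicate 1 (adjusted p = 0.0394). SFRP1 pointed the other way at a smaller size: 6.13, 6.03 and 6.15 in large-follicle arrays against 5.70, 5.93 and 5.85, a difference of 0.28 ± 0.10 that did not pass (adjusted p = 0.118). SFRP5 differed by -0.01 ± 0.11. DKK1 differed by -0.32 ± 0.12 (adjusted p = 0.126), under the lower quartile of signal, and by 0.05 at its other probe set. DKK3, a divergent member of its family, differed by 0.17 ± 0.22 with 0.18 at its second probe set, and DKKL1, a DKK3-related gene best known from sperm, by -0.09 ± 0.13.

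Several secreted components and FZD10 varied widely between arrays of a group. The pooled within-group SD exceeded the 95th percentile of all probe sets (0.34) in 6 of the 32 genes: SFRP2 (0.61), SFRP4 (0.60), FZD10 (0.53), WNT6 (0.46), RSPO3 (0.44) and DKK3 (0.36). Other secreted inhibitors varied less, with pooled SDs of 0.09 for SFRP1, 0.12 for SFRP5 and 0.15 for DKK1. Small-follicle replicate 2 was the highest of all 6 arrays for SFRP4, FZD10 and WNT6, and small-follicle replicate 3 the highest for SFRP2 and the lowest for RSPO3. The called genes had pooled SDs of 0.15 to 0.21, around the median of 0.18 for the 32 genes. A call itself favours a small SD, so this is not a separate result.

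**Figure D4:**
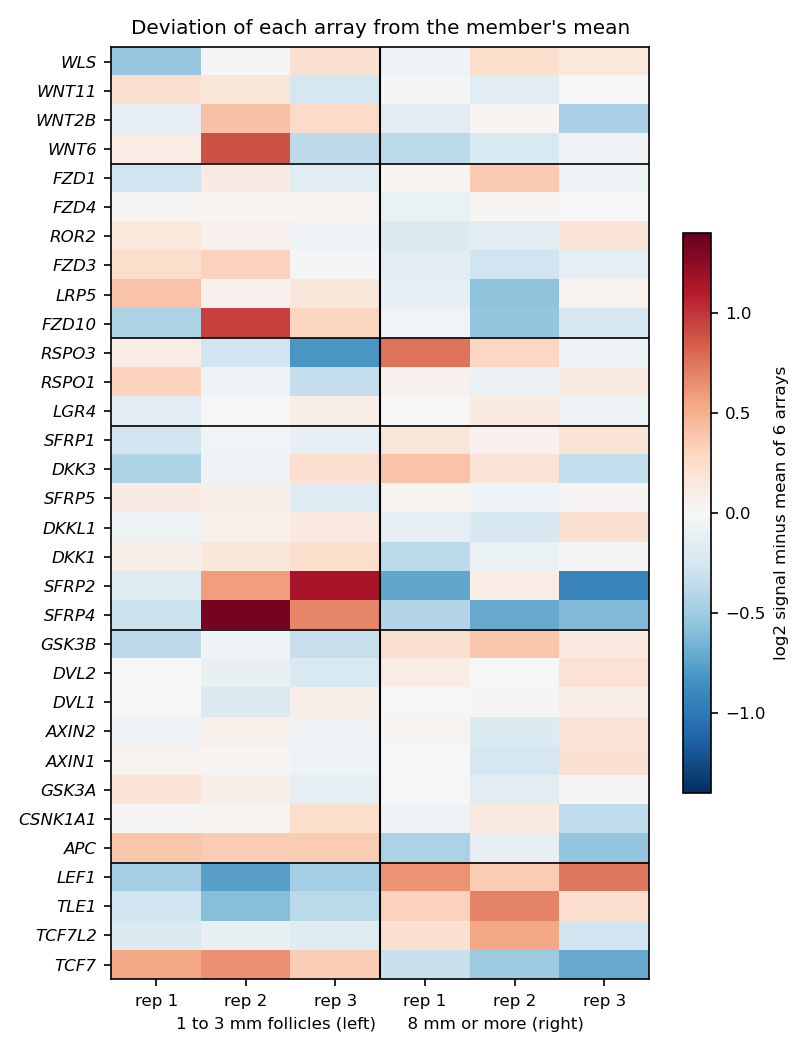
Deviation of each array from the mean of all 6 arrays (colour, in log2 units) for the 32 WNT pathway genes, in rows grouped by role in the order ligands, receptors, R-spondins, inhibitors, transducers and nuclear factors. LEF1, TLE1, TCF7, APC and GSK3B keep 1 colour within each follicle size, while SFRP4, FZD10 and WNT6 stand out mainly in small-follicle replicate 2.

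The list of theca markers holds fibrillar collagens, which cells of the follicle wall make. COL1A2 read 5.07, 4.44 and 4.23 in large-follicle replicates 1, 2 and 3, and 5.65, 5.08 and 6.25 in the small-follicle replicates, and COL3A1 was also highest in small-follicle replicate 3 (7.33). COL1A2 at -1.08 ± 0.31 (SE) and COL3A1 at -1.04 ± 0.47 were not called, and neither was COL1A1, at -0.23 ± 0.17 and highest in large-follicle replicate 3 (6.69). Other genes of the list had positive differences without a call: PDGFRA at 1.37, STAR at 0.91, ACTA2 at 0.75 and TCF21 at 0.59. INSL3 at 0.03 (mean log2 signal 9.41 against 9.38) and CYP17A1 at 0.12 differed little, also without a call. In the whole theca list limma called 0 of 12, and 8 were higher in sign. An unadjusted p under 0.05 was met by 4 of the 12, and by 2857 of all 9155 genes. Its summed linear signal ranged from 1379 to 1712 in large-follicle and from 1126 to 1632 in small-follicle arrays, with 2 of 12 under the lower quartile. The part of these cells in the SFRP values was not tested. In RNA from pooled cells, fewer cells of a type and less RNA per cell cannot be told apart.

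Other genes of the pathway were read from 3 lists, of which the list of beta-catenin targets also holds 4 of the 32 genes. Of 36 measured genes that act with beta-catenin, 2 rose, 1 fell and 33 were not called (8.33% called, against 15.4% of all genes, with a median difference of -0.02 against 0.01). CTNNB1, beta-catenin itself, read 12.43, 12.46 and 12.31 in large-follicle replicates 1, 2 and 3, and 12.42, 12.49 and 12.63 in the small-follicle replicates. The groups overlapped, and its difference of -0.11 ± 0.10 (SE) was not called (95% confidence interval -0.34 to 0.12). TLE3 at 0.05, TLE4 at 0.14 and TLE5 at 0.07, of the family of TLE1, were not called either. CXXC5, a zinc finger protein that binds Dishevelled, rose by 0.66 ± 0.10 (limma adjusted p = 0.00482), and its other 3 probe sets read 0.55 to 0.71, all called. The cell surface glypicans went in opposite directions. GPC3 rose, from 7.29, 6.88 and 7.38 in small-follicle arrays to 8.08, 8.12 and 8.07 in large-follicle arrays (0.91 ± 0.14, adjusted p = 0.00534). GPC4 fell, from 8.72, 8.74 and 8.33 to 7.05, 6.46 and 7.16 (-1.71 ± 0.20, adjusted p = 0.00208, 3.26-fold lower).

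Of 25 measured genes listed as targets of beta-catenin, 5 rose and 1 fell (24% called, against 15.4% of all genes, with a median difference of 0.02 against 0.01). LEF1 and TCF7, both already described, are 2 of those called, and AXIN2 and DKK1, also on the list, were not called. NRCAM, a neuronal cell adhesion molecule, read 4.38, 3.95 and 4.41 in large-follicle arrays and 3.33, 3.19 and 3.04 in small-follicle arrays, a low signal, and rose by 1.06 ± 0.15 (SE; limma adjusted p = 0.00374). FOSL1, an AP-1 subunit, rose by 0.64 ± 0.14 (adjusted p = 0.0237). ID2, an inhibitor of basic helix-loop-helix factors, rose by 1.04 ± 0.18 at its brighter probe set but read -0.58 ± 0.26 at the other, without a call. VCAN, the versican core protein of the cumulus matrix, rose by 0.52 ± 0.12, and that call was lost without large-follicle replicate 1 (0.50) or 2 (0.46) and without small-follicle replicate 1 (0.49) or 2 (0.48).

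Of 23 measured genes of the planar polarity and calcium branches, which do not use beta-catenin, 1 rose and 1 fell (8.7% called, against 15.4% of all genes, with a median difference of 0.02 against 0.01). PRICKLE3, related to a core planar polarity protein, rose by 0.50 ± 0.10 (SE; limma adjusted p = 0.0174), and CAMK2D, a calcium-dependent kinase, fell by 0.38 ± 0.09 (adjusted p = 0.0286). The call of PRICKLE3 was lost without large-follicle replicate 1 (0.45), and that of CAMK2D without any 1 of the 6 arrays (-0.42 to -0.35). The count of 2 went to 0 without large-follicle replicate 1 and to 1 without large-follicle replicate 3, small-follicle replicate 2 or small-follicle replicate 3.

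The arrays carried the signals of cumulus cells, and some markers of the cells differed as well. Of 13 measured granulosa and cumulus markers, 6 rose, among them INHBA, CYP19A1 and FSHR, and GATM fell (-1.20). The other 6, among them AMH, NR5A1, GJA1 and HSD17B1, were not called. Over all genes 7.08% were called higher and 8.3% lower. The summed linear signal of the 13 ranged from 57770 to 60420 in large-follicle and from 41070 to 44690 in small-follicle arrays. The brightest genes weigh most in it, INHBA among them (mean log2 signal 14.07 against 12.93). Of 8 oocyte markers limma called 0, with 0 at an unadjusted p under 0.05, and 5 lay under the lower quartile of signal. Of 11 endothelial, 9 surface epithelial and 7 erythrocyte markers, 1 each was called (TEK lower, KRT18 and HBM higher), and 6, 2 and 5 lay under the lower quartile. RMA gives no detection call, so no marker can be said to be at 0.

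A sign of RNA quality moved with follicle size. The 3' minus 5' signal, averaged over 6 bovine control transcripts, was 1.98 ± 0.19 in large-follicle and 2.46 ± 0.27 in small-follicle arrays (SD, n = 3 each). The groups differed by -0.48, and a 2-sided exact permutation test over arrays gave p = 0.1, its lower limit for groups of 3. The highest large-follicle array (replicate 1, 2.15) lay below the lowest small-follicle array (replicate 3, 2.16). A fit with the index therefore cannot tell RNA quality and follicle size apart. When limma was fitted with this index in the model, none of the calls of the WNT genes was kept. LEF1 read 1.23 ± 0.22 (SE; adjusted p = 0.0582), TCF7 -0.81 ± 0.19 (0.0945), APC -0.88 ± 0.19 (0.0812), TLE1 0.67 ± 0.23 (0.182) and GSK3B 0.44 ± 0.20 (0.274). Their signs were kept, LEF1 and APC read larger and TCF7, TLE1 and GSK3B smaller than without the index, and every SE grew. SFRP2 read -2.18 ± 0.29 in that fit and was called (adjusted p = 0.0407).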

How the data were processed

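Per the submitters' processing notes, the authors used RMA, and the deposited table holds its log2 probe set signals for 6 arrays. The sources used here give no software, version or settings for it. Of 24128 probe sets, 112 were controls and were dropped. The platform annotation gives 1 symbol to 13292 of the other 24016, several to 86 and none to 10638. All 52 WNT probe sets matched a RefSeq gene identifier of ARS-UCD2.0 with the same symbol.

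The fit used limma 3.58.1 (R 4.3.3) with lmFit and eBayes, no block and no filter on low values (8.28 degrees of freedom in all). Tests were 2-sided, with Benjamini-Hochberg adjustment over 24016 probe sets. The labels state no pairing, so the numbers were not used as pairs in the main fit. Correlations of deviations were -0.002, -0.05 and -0.34 for same-numbered arrays, and -0.28 to 0.32 for the other combinations. The fit was first tested on simulated data with 200 changed probe sets. It called 17.9% of changes of 0.5 log2 units, 80.6% of changes of 1 and 98.5% of changes of 2. More probe sets than that were called in the real data, so these shares need not hold there. An uncalled gene is not shown to be unchanged. Plots were made in matplotlib 3.10.9 under python 3.11.15.

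The rule named every called gene, in each role the 3 brightest and the largest increase and decrease, and a fixed set of ovarian WNT genes. From each other list it named up to 5 called genes with the smallest p, and CTNNB1. FOSL1, of the target list, and TLE3, TLE4 and TLE5 were given outside this rule, and they were not followed under the alternatives. Genes and lists were chosen with earlier results of these data known. Alternatives covered a block for the replicate number, each array left out, filters, scalings, array weights, another prior, other probe set rules and thresholds, and the RNA index or leukocyte markers as a covariate.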

Additional observations from a re-analysis of the deposited data

How the results depend on the processing

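LEF1 and TCF7 kept direction and call in 20 of 21 alternatives each, the exception being the fit with the 3'-minus-5' index. Over all 41 genes followed, 760 of 844 values under alternatives kept direction and side of the threshold, 43 lost a call, 14 gained one, and 27 uncalled differences changed sign. No called gene changed sign, which groups that do not overlap fix for the fits that leave out 1 array. Scaling moved the median of all probe sets by -0.01 at most.

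The number of WNT genes called higher was 3 as reported. It was 1 with the mean of all probe sets of a gene, 0 with the index and 1 with the leukocyte markers as a covariate. Leaving out 1 array gave 2 to 4. The number lower was 2. It was 1 with a filter at the median, 5 with array weights, 4 at a threshold of 0.10, 1 with either covariate, and 2 to 4 leaving out 1 array. The beta-catenin pathway list, with 3 calls, gave 5 with cyclic loess, 6 with array weights, 6 at a threshold of 0.10 and 0 with the index. The target list, with 6, gave 1 with the index and 3 with the leukocyte markers. The planar polarity and calcium list, with 2, gave 4 with a filter at the median, 4 with a trended robust prior, 1 without probe sets that can bind several transcripts, 0 at 0.01, 5 at 0.10, 0 with either covariate, and 0 to 2 leaving out 1 array. The cause of these shifts was not tested. A covariate or a lost array also leaves fewer degrees of freedom.

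With the replicate number as a block, 4 WNT genes were called higher (RSPO3 added, adjusted p = 0.0209) and 2 lower. The other lists gave 3, 4 and 1 calls in that block fit. No correlation of same-numbered deviations was above 0, but with 3 arrays in each group these correlations cannot show whether the numbers pair the arrays. The large-follicle minus small-follicle difference of the index stayed between -0.63 and -0.37 leaving out 1 array. SFRP2, FZD3, FZD4 and DKK1 had signals under the lower quartile of probe set means.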
